A study of Mus musculus with 65 samples.

Results

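RAW264.7 macrophages that carried guide RNA 1 were set against RAW264.7 macrophages that carried a control guide RNA, both at 2 h of lipopolysaccharide (LPS). The members were 6 polyA RNA libraries, 3 per guide, chosen by their titles out of 65 libraries in the series. RAW264.7 is an established mouse macrophage line, and the labels give its strain background as BALB/c. The 6 libraries carry the labels IfnarWT, Suv39h1WT, MyD88WT and TrifWT, and each group has 1 library from each of cohorts C1, C2 and C3. The same experiment holds 3 further libraries of guide 2 at 2 h and 9 libraries at 0 h (guide 1, guide 2 and control guide, 3 each), which were used for comparison. The titles call the cells DC, whereas the source label and the cell type label name RAW264.7. The labels give an LPS dose of 100 ng/mL, in a sentence that speaks of bone marrow derived dendritic cells. They give neither the target nor the sequence of the guides, nor the effector they work with, nor whether a line is 1 clone or a pool, so no targeted gene could be checked first and no guide is shown.

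LPS is the bacterial ligand of TLR4. Signalling through the adaptor MyD88 activates NF-kB and AP-1 and leads to inflammatory cytokines and chemokines. Signalling through the adaptor TRIF activates IRF3, which drives interferon-beta, and secreted interferon then raises a large set of interferon-stimulated genes. Macrophages also raise transcripts of some transposable elements (TEs) after LPS, among them the endogenous retrovirus family VL30, and the series as a whole is titled as a study of TE induction in innate sensing.

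The cells had the transcripts of macrophages. All 10 genes of a macrophage marker list were tested, with Lyz2 (lysozyme) at 3391, 3155 and 3758 CPM in guide 1 cells and 3481, 3289 and 3888 CPM in control cells. CPM is the usual depth-scaled count, here scaled to gene counts with TMM factors for composition. Csf1r, the receptor of the growth factor CSF1, was at 1488, 1324 and 1459 CPM in guide 1 cells and 1284, 1271 and 1264 CPM in control cells, and its log2 difference of 0.16 did not pass the test except without the guide 1 library of cohort C2. Of 9 markers of conventional dendritic cells, 6 (Flt3, Clec9a, Cd209a, Ccr7, Dpp4 and Batf3) had at most 6 counts in any of the 6 libraries, while Itgax (CD11c) stood at 44.6, 63.6 and 60.5 CPM in guide 1 cells and 39.8, 42.3 and 56.4 CPM in control cells. The 3 dendritic cell markers tested did not pass. No marker of mast cells or fibroblasts reached the minimum for testing. Of other lineages, 1 B cell, 1 T and NK cell, 1 granulocyte and 2 erythroid and megakaryocyte markers were tested, and none passed. The granulocyte marker S100a8 differed by -1.40 on the log2 scale at 2 h (edgeR adjusted p = 0.245) and was called lower at 0 h (-3.69). Depth differed between the groups: guide 1 libraries held 76.6 M, 75.2 M and 65.8 M (mega) gene counts and control libraries 46.4 M, 56.6 M and 56 M, without overlap. The libraries of cohort C3 stood apart in all 6 groups, at 6.7 to 20.05 on the fourth principal component against -21.1 to 1.5 for those of cohorts C1 and C2. Thinned to equal totals, 346 genes were called in place of 403.

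Guide 1 cells held far more transcript of the cytokine gene Il19 and far less of Ly86, a partner of an LPS-responsive receptor, and differed more moderately in genes such as Ccl2, C3, Axl and Ifi44l. Of 13078 genes tested, 210 were higher and 193 lower in guide 1 cells at an adjusted p under 0.05 (edgeR quasi-likelihood test, Benjamini-Hochberg), which is 3.08% of the genes tested, 1.61% higher and 1.48% lower. The median log2 difference over all tested genes was 0.00. The 3 guide 1 values lay entirely above or entirely below the 3 control values for 2575 genes, 19.7% of those tested (9.66% above and 10% below). The number called fell to 181 without the control library of cohort C1, to 202 without that of cohort C2 and to 218 without the guide 1 library of cohort C1, it was 858 (6.51%) without the cohort C3 libraries of every group, and it was 1240 (9.48%, with 716 higher and 524 lower) with the cohort as a replicate block. Nothing in the labels says that the libraries come from separately made lines, so the p-values measure the spread between these libraries.

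**Figure D1:**
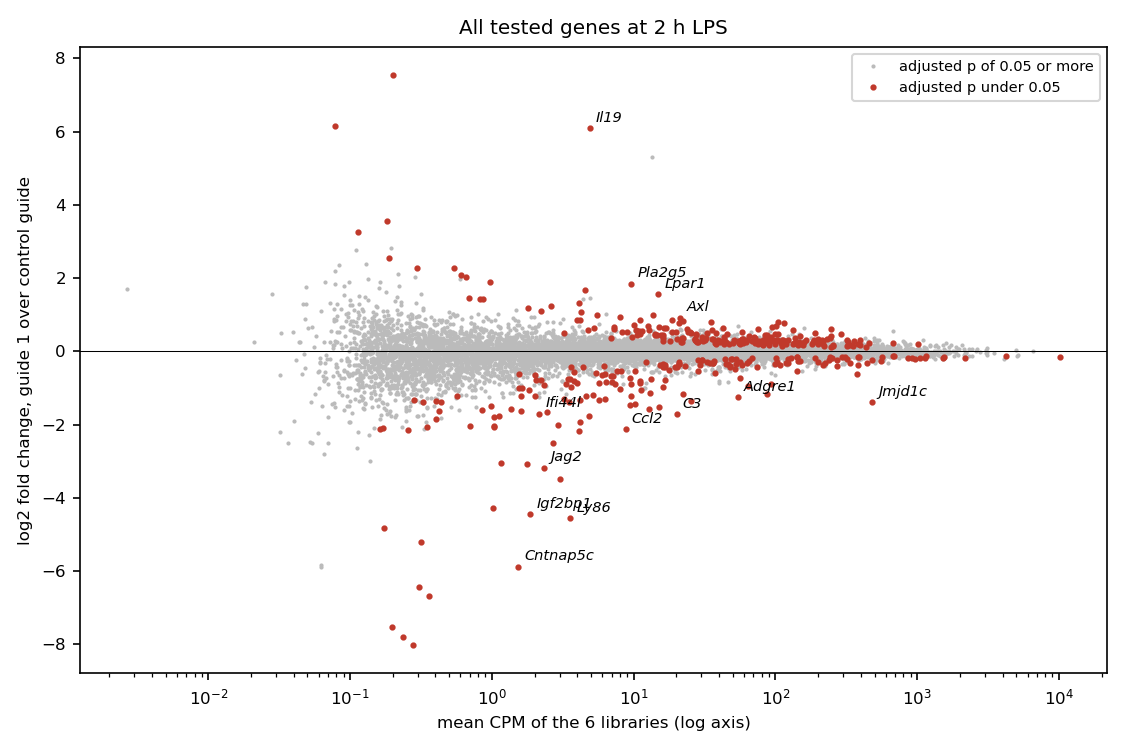
Mean CPM of the 6 libraries (log axis) against the log2 fold change of guide 1 over control guide at 2 h LPS, with 1 point per tested gene and genes at an adjusted p under 0.05 in red. The 403 called genes lie on both sides of 0, and Il19 (6.09) and Cntnap5c (-5.88) stand far from the bulk.

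Among the genes that rose, Il19 stood alone. It encodes interleukin-19, a cytokine of the IL-10 family, and lies at chr1:130932656-130945457 (GRCm38.p6). It was at 8.49, 10.4 and 10.1 CPM in guide 1 cells and at 0.0458, 0.150 and 0.209 CPM in control cells, so every guide 1 library held a level that no control library came near. The log2 difference was 6.09 ± 0.41 (SE; adjusted p = 2.23e-07). Guide 2 cells were at 0.532, 0.161 and 0.299 CPM, and the test of guide 1 against guide 2 gave 4.84 ± 0.36, above guide 2 in all 3 libraries. Before LPS the same split was present, with 3.68, 2.51 and 3.97 CPM in guide 1 cells and 0.0738, 0.0214 and 0 CPM in control cells.

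Pla2g5, a secreted phospholipase A2, was at 16.5, 13.9 and 14.8 CPM in guide 1 cells and 4.47, 4.60 and 3.46 CPM in control cells (log2 difference 1.85 ± 0.12, adjusted p = 2.23e-07). Lpar1, a receptor for lysophosphatidic acid, was at 20.9, 21.2 and 24.8 CPM in guide 1 cells and 6.6, 8.01 and 8.11 CPM in control cells (1.55 ± 0.15, adjusted p = 7.09e-06). Both groups were narrow and far apart for these genes, and both genes were also higher in guide 2 cells than in control cells, by 1.81 and 0.90 on the log2 scale. Qpct, the glutaminyl cyclase that forms pyroglutamate at the ends of chemokines, was at 5.34, 5.12 and 7.24 CPM in guide 1 cells and 2.08, 2.03 and 2.93 CPM in control cells (1.33 ± 0.19, adjusted p = 0.000673). Guide 2 cells were close to the control level for Qpct, and the difference between guide 1 and guide 2 was 1.17 ± 0.19 (adjusted p = 0.00243).

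Axl, a TAM receptor that binds GAS6 and takes part in clearing dead cells and in restraining inflammation, was at 24.4, 32.5 and 27.1 CPM in guide 1 cells and 14, 13.3 and 17 CPM in control cells (0.92 ± 0.12, adjusted p = 0.000204). Guide 2 cells held far more Axl, at 92.4, 117 and 102 CPM, so guide 1 was lower than guide 2 by 1.89 on the log2 scale. Gas6 itself was lower in guide 1 cells, at 1.83, 1.27 and 1.73 CPM against 3.34, 2.46 and 3.42 CPM in control cells. Its log2 difference was -0.93 ± 0.22 (adjusted p = 0.0260), and the adjusted p rose to at most 0.107 when 1 library was left out, with the call lost for each library but the control one of cohort C2.

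The 15 largest rises also included Il7r, the IL-7 receptor chain, at 28.8, 18.7 and 25.2 CPM in guide 1 cells and 14.4, 12.3 and 13.3 CPM in control cells (0.87). Tfcp2l1, a transcription factor of the Grainyhead group, differed by 0.94, Dlg3, a scaffold protein of cell junctions, by 1.00, Maged1 by 0.86, Cyp2s1, a cytochrome P450, by 0.83, Serpinb6b, a protease inhibitor, by 1.08 and Pakap by 1.67. These 7 genes kept their call whichever of the 6 libraries was left out. Adora2a, an adenosine receptor (0.87, adjusted p = 0.0285), and Cd200r1, the receptor for the inhibitory ligand CD200 (0.85, adjusted p = 0.0260), did not: their adjusted p rose to at most 0.147 and 0.127. Removing either guide 1 library of cohort C2 or C3 or either control library of cohort C1 or C2 ended both calls, and for Adora2a removing the guide 1 library of cohort C1 did so too.

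**Figure D2:**
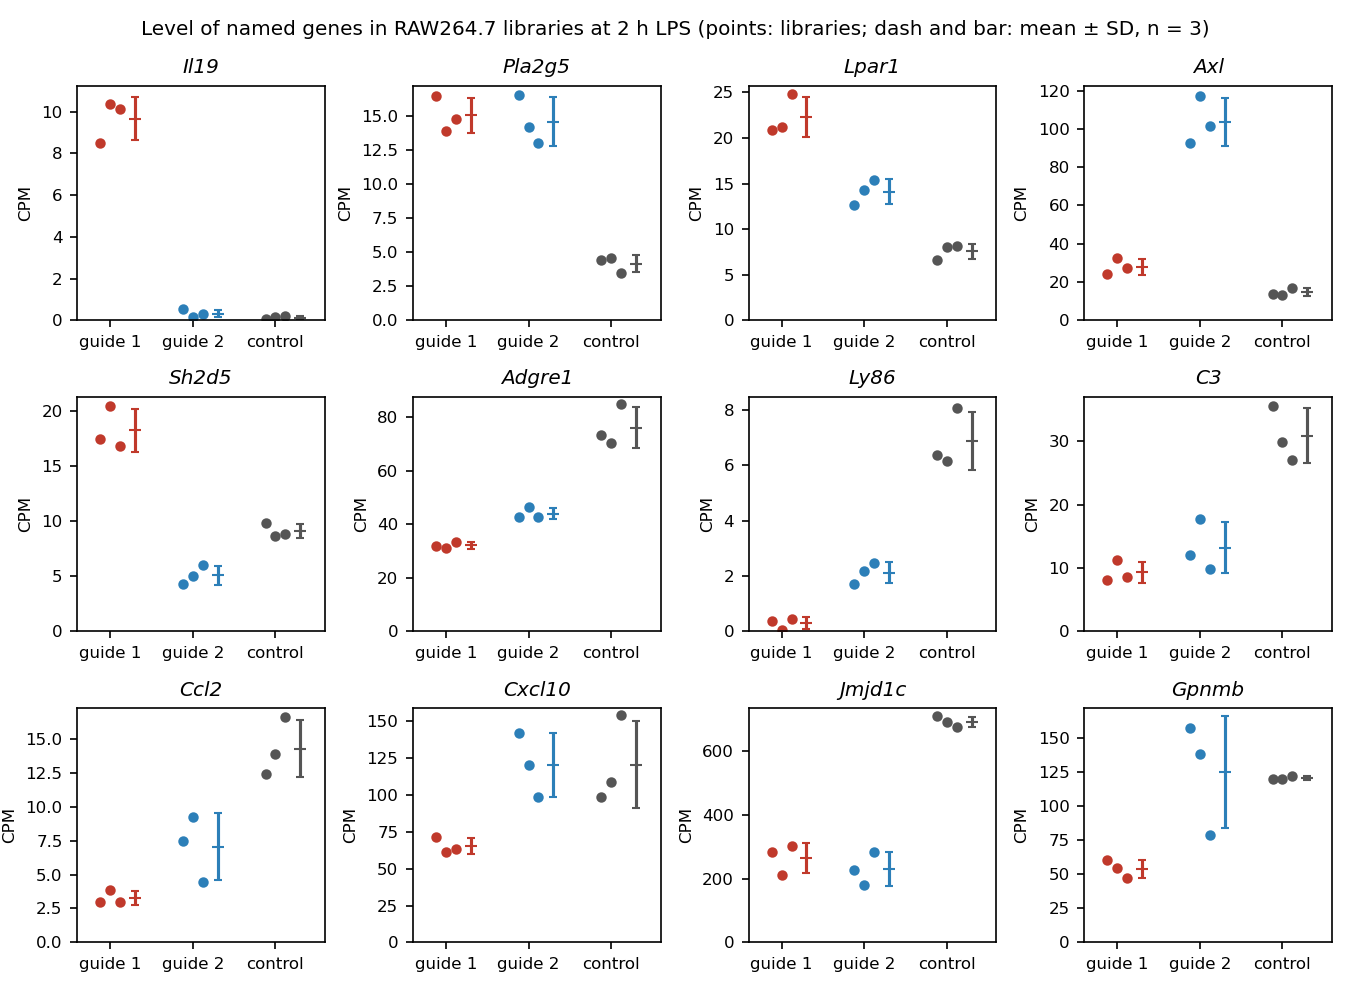
CPM of 12 named genes in each library at 2 h LPS (points), with the mean and SD of 3 libraries beside them, for guide 1, guide 2 and control guide. Guide 1 libraries hold 8.49 to 10.4 CPM of Il19 and 24.4 to 32.5 CPM of Axl, and guide 2 libraries hold 92.4 to 117 CPM of Axl.

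Some of the genes that fell were nearly absent from guide 1 cells. Ly86 encodes MD-1, the partner of the LPS-responsive receptor RP105 (CD180), and lies at chr13:37345345-37419036. It was at 0.391, 0.0422 and 0.449 CPM in guide 1 cells and 6.39, 6.17 and 8.07 CPM in control cells (-4.56 ± 0.35, adjusted p = 6.44e-07). Guide 2 cells lay between, at 1.71, 2.18 and 2.49 CPM, and guide 1 was below guide 2 by 2.87 ± 0.37 on the log2 scale. At 0 h Ly86 was at 0.233, 0.380 and 0.465 CPM in guide 1 cells and 6.52, 7.80 and 7.42 CPM in control cells.

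3 low genes outside the naming rule, picked after their values were seen, had the same shape. Cntnap5c, a neurexin-related cell adhesion protein, was at 0.0559, 0.0422 and 0.0482 CPM in guide 1 cells and 2.91, 2.48 and 3.59 CPM in control cells. Igf2bp1, an RNA-binding protein of fetal tissues and tumours, was at 0.168, 0.0844 and 0.241 CPM in guide 1 cells and 2.89, 4.22 and 3.61 CPM in control cells. Jag2, a Notch ligand, was at 0.461, 0.394 and 0.546 CPM in guide 1 cells and 4.40, 3.36 and 4.92 CPM in control cells. Guide 2 cells were also low for all 3, with 0.0460 to 0.118, 0.644 to 1.14 and 0.345 to 0.882 CPM.

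Adgre1, which encodes the macrophage marker F4/80, was at 31.8, 31.1 and 33.5 CPM in guide 1 cells and 73.2, 70.3 and 84.9 CPM in control cells (-1.24 ± 0.09, adjusted p = 2.23e-07). It was the exception in its list: of 15 macrophage lineage genes tested, Adgre1 fell, Itgam (CD11b) rose by 0.25 and 13 did not pass. Itgam was at 238, 225 and 219 CPM in guide 1 cells and 192, 185 and 197 CPM in control cells (adjusted p = 0.0156), a call that ended without the guide 1 library of cohort C1 or the control library of cohort C1 or C2 (adjusted p up to 0.0751). C3, the central complement component, was at 8.17, 11.3 and 8.56 CPM in guide 1 cells and 35.6, 29.9 and 27 CPM in control cells (-1.72 ± 0.17, adjusted p = 1.4e-05). Guide 2 cells were below control cells in both genes, by 0.79 for Adgre1 and 1.23 for C3 on the log2 scale, and guide 1 was below guide 2 in Adgre1 (-0.45, adjusted p = 0.00835).

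Jmjd1c, a protein of the JmjC family of histone demethylases, was the most abundant of the large falls. It was at 282, 213 and 303 CPM in guide 1 cells and 710, 692 and 677 CPM in control cells (-1.38 ± 0.14, adjusted p = 1.44e-05), and guide 2 cells, at 226, 180 and 285 CPM, differed from guide 1 cells by 0.20 on the log2 scale (guide 1 minus guide 2), which did not pass. Trp53i11 (-2.18), Epha2, an ephrin receptor (-1.57), Col27a1, a fibrillar collagen (-1.51), Plod2, a lysyl hydroxylase for collagen (-1.43), Abhd6, a lipase that hydrolyses monoacylglycerols (-1.39), Rnase4, a secreted ribonuclease (-1.32), and Hspb7, a small heat shock protein (-1.30), were all lower, as was Neurl3 (-1.77). Each kept its call whichever library was left out. Thbd, thrombomodulin (-1.47), and Tcim (-1.33) had adjusted p of 0.0220 and 0.0148, which rose to at most 0.127 and 0.0784. The Thbd call ended without the guide 1 library of cohort C1 or C3 or the control library of cohort C1 or C2, and that of Tcim without the guide 1 library of cohort C2 or the control library of cohort C1.

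The inflammatory cytokines were mostly at similar levels, with a few chemokine and growth factor genes lower. Of 28 tested, none rose and 3 fell, against 1.48% lower in all genes, and the median log2 difference was -0.16. With the cohort as a replicate block 7 fell (4.01% of all genes) and Ccl9 rose (5.47% of all genes higher). Tnf was at 2085, 1580 and 1541 CPM in guide 1 cells and 1580, 1593 and 1641 CPM in control cells, and Il1b at 1212, 1730 and 1103 CPM in guide 1 cells and 1371, 1312 and 1360 CPM in control cells. Neither passed the test (log2 differences 0.11 and 0.00), and the groups overlapped for both. After LPS 26 of the 28 genes rose in guide 1 cells and 27 in control cells, with median log2 responses of 5.06 and 5.36.

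Ccl2, the monocyte chemokine MCP-1, fell most. It was at 2.97, 3.85 and 3.00 CPM in guide 1 cells and 12.4, 13.9 and 16.6 CPM in control cells (-2.12 ± 0.25, adjusted p = 8.21e-05), and it was the only one of the 3 whose call held without any 1 library. Guide 2 cells stood between them, at 7.48, 9.27 and 4.44 CPM. Cxcl10, the chemokine IP-10 that interferon and IRF3 both induce, was at 71.9, 61.6 and 63.2 CPM in guide 1 cells and 99, 109 and 154 CPM in control cells (-0.88 ± 0.20, adjusted p = 0.0240). Csf2, which encodes GM-CSF, was at 0.894, 1.28 and 1.44 CPM in guide 1 cells and 3.23, 3.06 and 2.17 CPM in control cells (-1.22 ± 0.28, adjusted p = 0.0436). The Cxcl10 call was lost without any 1 library but the control one of cohort C1, with an adjusted p of at most 0.0970, and the Csf2 call without any 1 library but the control one of cohort C3, with at most 0.175.

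NF-kB genes, immediate-early factors and TLR4 signalling genes showed little difference. Of 24 NF-kB subunits and feedback genes, 1 rose, 1 fell and 22 did not pass, with a median log2 difference of 0.00. Among all genes 1.61% were higher and 1.48% lower. Nfkb1, the p105 precursor of the p50 subunit, was at 1040, 1158 and 1039 CPM in guide 1 cells and 931, 927 and 943 CPM in control cells (0.21, adjusted p = 0.0173), and lost its call without the guide 1 library of cohort C2 or the control library of cohort C1 or C2 (at most 0.0734). Tnip1, an inhibitor that works with A20, fell by 0.27 on the log2 scale, at 515, 509 and 494 CPM in guide 1 cells and 603, 579 and 645 CPM in control cells. Nfkbia, the IkB-alpha inhibitor, was at 1136, 945 and 1084 CPM in guide 1 cells and 1005, 913 and 1159 CPM in control cells and did not pass. Of 22 immediate-early factors only the nuclear receptor Nr4a2 passed (0.54, adjusted p = 0.0228), and not without the guide 1 library of cohort C1 or the control library of cohort C2 or C3 (at most 0.122). None of 24 TLR4 signalling genes passed (edgeR; 1 at an unadjusted p under 0.05, 0 by DESeq2; median log2 difference 0.00), with the co-receptor Cd14 at 1832, 1846 and 1517 CPM in guide 1 cells and 1946, 1999 and 1706 CPM in control cells.

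Interferon-stimulated genes, which encode antiviral effectors, mostly had lower values in guide 1 cells. Of 42 tested, 6 fell (Ifi44l, Gbp2, Ifi44, Ifi47, Isg20 and Bst2), none rose and 36 did not pass, against 1.48% lower among all genes. Their log2 difference was below 0 in 40 of the 42, with a median of -0.52 against 0.00 for all genes, and the libraries did not overlap for 25 of them, against 19.7% of all genes. The count of falls ranged from 3, without the guide 1 library of cohort C1, to 5 when 1 library was left out, and it was 9 without the cohort C3 libraries (3.17% of all genes lower). It was 11 with DESeq2 (2.55%), 11 with only the 6 compared libraries in the fit (1.09%), 10 with no filter on low counts (0.977%) and 18 with the cohort as a replicate block (4.01%). Under the block the GTPase gene Iigp1 was called higher (2.83, adjusted p = 0.0490). In the main fit 4 of the 42 were already called lower at 0 h and none higher, with a median of -0.45. Among all genes 1.19% were lower at 0 h. The median log2 response of the 42 genes to LPS was 0.82 in guide 1 cells and 0.70 in control cells.

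Ifi44l, an interferon-induced gene, was at 0.810, 1.12 and 1.11 CPM in guide 1 cells and 3.14, 2.93 and 3.8 CPM in control cells (-1.70 ± 0.27, adjusted p = 0.00128). Its neighbour on chromosome 3, Ifi44, was at 13.9, 13.9 and 13.5 CPM in guide 1 cells and 29.5, 29.3 and 33.9 CPM in control cells (-1.16 ± 0.24, adjusted p = 0.0125, and 0.0536 without the guide 1 library of cohort C1). Both were also lower in guide 2 cells than in control cells, by 2.03 and 1.39 on the log2 scale. Gbp2, a guanylate-binding protein that acts on pathogen vacuoles, was at 0.419, 0.689 and 0.449 CPM in guide 1 cells and 1.21, 1.71 and 1.48 CPM in control cells (-1.50 ± 0.32, adjusted p = 0.0143). Guide 2 cells held 1.36, 2.39 and 0.993 CPM of Gbp2, and guide 1 was below guide 2 by 1.58 on the log2 scale (adjusted p = 0.0112).

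Ifi47, an immunity-related GTPase, was at 1.15, 1.10 and 0.995 CPM in guide 1 cells and 2.59, 1.65 and 2.26 CPM in control cells (-0.998 ± 0.24, adjusted p = 0.0277). The Gbp2 call ended without the guide 1 library of cohort C1 or C3 or the control library of cohort C2 (adjusted p at most 0.0821), and the Ifi47 call without any 1 library but the control one of cohort C2 (at most 0.134). Isg20, an exonuclease (-0.89), and Bst2, the tether of budding virions called tetherin (-0.37), kept their calls in all 6 such fits. The most abundant members did not pass. Oasl1 was at 219, 226 and 131 CPM in guide 1 cells and 198, 252 and 207 CPM in control cells, and Isg15, the ubiquitin-like modifier, at 71.4, 80.6 and 58.2 CPM in guide 1 cells and 80.2, 93.3 and 96 CPM in control cells.

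The promoters of 4 of the 6 genes that fell are shown, as RefSeq gives them on GRCm38.p6 (250 bases before to 50 after the start). They were picked from the interferon-stimulated list because they were called lower in this comparison. Capitals mark matches on either strand to GAAA, any 2 bases and GAAA again, the core spelling of an interferon-stimulated response element.

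Gbp2, chr3:142620413-142620712, plus strand: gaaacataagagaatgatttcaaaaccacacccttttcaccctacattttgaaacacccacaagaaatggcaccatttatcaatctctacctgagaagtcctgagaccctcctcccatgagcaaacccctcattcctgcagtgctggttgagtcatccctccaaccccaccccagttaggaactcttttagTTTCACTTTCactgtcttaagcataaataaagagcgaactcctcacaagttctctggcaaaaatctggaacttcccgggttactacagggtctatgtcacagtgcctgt

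Bst2, chr8:71537423-71537722, minus strand: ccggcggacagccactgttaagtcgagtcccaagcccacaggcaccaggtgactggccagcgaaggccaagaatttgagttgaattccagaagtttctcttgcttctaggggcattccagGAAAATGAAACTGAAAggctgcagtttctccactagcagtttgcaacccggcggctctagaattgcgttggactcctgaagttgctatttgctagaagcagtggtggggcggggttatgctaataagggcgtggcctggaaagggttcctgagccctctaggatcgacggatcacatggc

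Ifi44l, chr3:151762842-151763141, minus strand: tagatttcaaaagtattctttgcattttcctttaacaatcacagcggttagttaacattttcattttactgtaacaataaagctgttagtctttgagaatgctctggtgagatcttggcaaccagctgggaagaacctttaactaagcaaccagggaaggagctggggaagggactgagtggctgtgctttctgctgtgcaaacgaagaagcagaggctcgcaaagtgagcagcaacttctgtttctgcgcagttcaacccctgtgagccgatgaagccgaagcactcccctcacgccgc

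Ifi44, chr3:151749861-151750160, minus strand: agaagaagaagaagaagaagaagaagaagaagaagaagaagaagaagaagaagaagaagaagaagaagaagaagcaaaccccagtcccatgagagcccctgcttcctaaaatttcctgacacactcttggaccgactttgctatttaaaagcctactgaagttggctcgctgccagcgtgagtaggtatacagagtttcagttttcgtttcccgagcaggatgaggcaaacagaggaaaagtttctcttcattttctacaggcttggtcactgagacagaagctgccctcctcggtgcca

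Gbp2 held 1 match, which begins 59 bases before the start, and Bst2 held 2 that overlap each other. Ifi44l and Ifi44 held none in this window. Of the 42 genes, 33 had a promoter in the table, and 19 of them held a match (57.6%), as did 383 of 10245 tested genes with a promoter (3.74%) and 3.44% of all 32851 windows. Among the genes that fell, 2 of 6 held one (33.3%), and among those not called 17 of 27 (63.0%).

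All 8 tested genes of interferon-beta and other IRF3 targets had a log2 difference below 0 (median -0.58), and Cxcl10 alone passed, with 3 lower under the replicate block (4.01% of all genes). Ccl5, the chemokine RANTES, was at 78.3, 98.9 and 54.7 CPM in guide 1 cells and 117, 129 and 114 CPM in control cells, without overlap, but its log2 difference of -0.63 did not pass (adjusted p = 0.193). Of 19 nucleic acid sensors and adaptors none passed (edgeR; 6 at an unadjusted p under 0.05, 2 by DESeq2; median -0.21), with 3 lower under the replicate block (4.01% of all genes). Of 18 genes of MHC class I presentation none passed (edgeR; 4 at an unadjusted p under 0.05, 1 by DESeq2; median -0.13), with 3 lower without the cohort C3 libraries (3.17% of all genes) and 4 lower under the block (4.01%). Cd74, the invariant chain of MHC class II, was at 112, 112 and 121 CPM in guide 1 cells and 160, 158 and 186 CPM in control cells (-0.55 ± 0.09, adjusted p = 0.00160), and was lower than control in guide 2 cells too (-0.45).

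**Figure D3:**
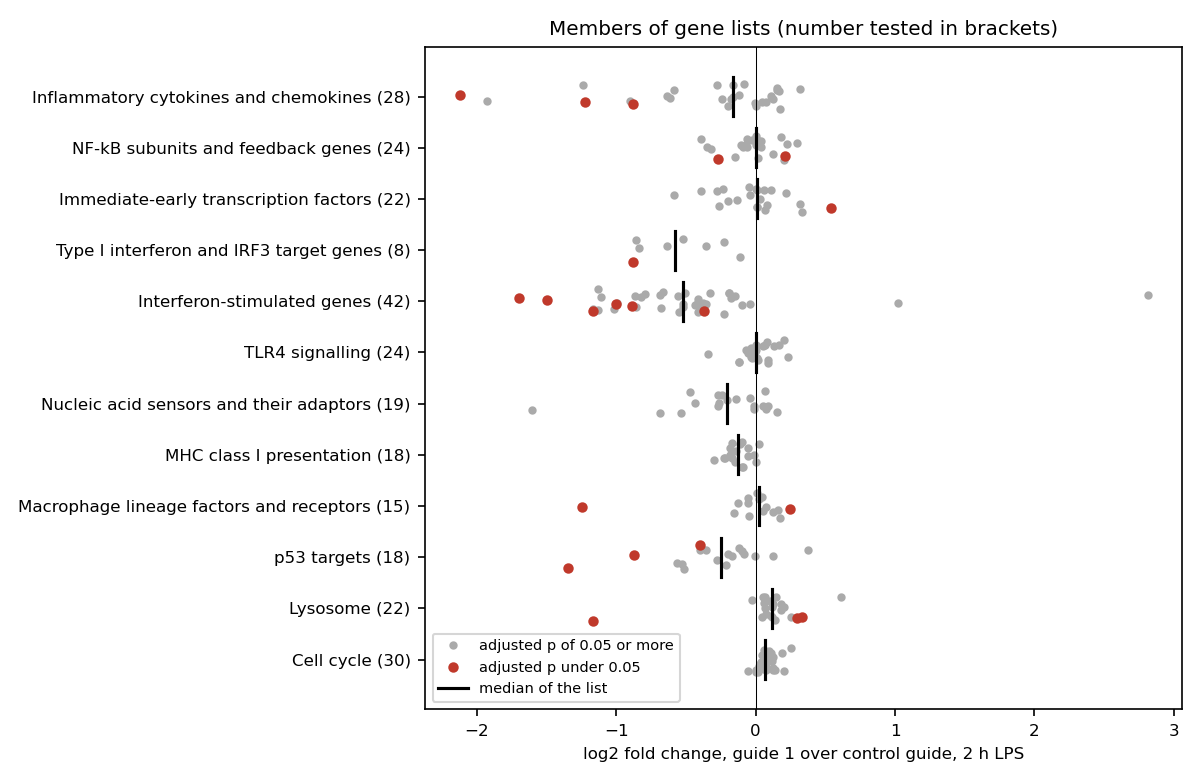
Log2 fold change of guide 1 over control guide at 2 h LPS for each tested member of 12 gene lists (points, red at an adjusted p under 0.05), with the list's median as a bar. The bar of the interferon-stimulated genes lies at -0.52 and that of the TLR4 signalling genes at 0.00.

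Genes of other functions fell or rose in small numbers. Of 18 targets of the tumour suppressor p53, 3 fell and none rose (median -0.24), against 1.48% lower among all genes. The falls numbered 6 with DESeq2 (2.55% of all genes), 8 without the cohort C3 libraries (3.17%) and 7 with the cohort as a replicate block (4.01%). Eda2r, a TNF receptor family member, was at 13.8, 13.7 and 15.5 CPM in guide 1 cells and 39.7, 35.7 and 34 CPM in control cells (-1.35 ± 0.22), Phlda3, which restrains AKT, differed by -0.88 and Zmat3, an RNA-binding protein, by -0.40. All 3 were called in every fit that left out 1 library, and all 3 were also lower than control in guide 2 cells. The abundant targets Cdkn1a (p21) and Mdm2 had log2 differences of -0.17 and -0.27 and did not pass.

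Among lysosome and surface genes, Gpnmb, a glycoprotein of lysosomes, was at 60.1, 54.3 and 47 CPM in guide 1 cells and 120, 120 and 122 CPM in control cells (-1.16 ± 0.20, adjusted p = 0.00291). Guide 2 cells were at 157, 138 and 78.8 CPM, above guide 1 in all 3 libraries (guide 1 minus guide 2 -1.21, adjusted p = 0.00283). Olr1, the scavenger receptor LOX-1, was higher in guide 1 cells, at 206, 225 and 241 CPM against 155, 146 and 177 CPM in control cells (0.49, adjusted p = 0.00218). Mrc1, the mannose receptor CD206, was at 13.3, 11 and 8.30 CPM in guide 1 cells and 23.3, 24.4 and 15.9 CPM in control cells (-0.96, adjusted p = 0.0271), and its call ended without the guide 1 library of cohort C2 or C3 or the control library of cohort C1 or C2 (at most 0.131). In this gene the library of cohort C3 was the lowest of each group.

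Of 30 cell cycle genes none passed (edgeR; 4 at an unadjusted p under 0.05, 0 by DESeq2; median 0.07), with Mki67 at 642, 498 and 674 CPM in guide 1 cells and 554, 548 and 639 CPM in control cells. With the cohort as a replicate block 2 of the 30 were higher (5.47% of all genes). Of 26 genes of heterochromatin and TE silencing, Morc2a, an ATPase that works with the HUSH complex, rose by 0.27, at 114, 125 and 118 CPM in guide 1 cells and 101, 99.8 and 96.5 CPM in control cells (adjusted p = 0.00232), and 25 did not pass. Trim28, the corepressor KAP1, was at 320, 315 and 292 CPM in guide 1 cells and 330, 314 and 297 CPM in control cells.

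Some further lists held more calls without the cohort C3 libraries. None of 18 genes of the integrated and endoplasmic reticulum stress responses passed with all libraries (edgeR; 8 at an unadjusted p under 0.05, 1 by DESeq2), 16 of the 18 were below 0 and the median was -0.18. Without the cohort C3 libraries 9 were lower (3.17% of all genes), among them Atf4, the central transcription factor of the response (-0.44), Trib3, a pseudokinase that it induces (-1.36), Chac1, an enzyme that degrades glutathione (-1.20), and Asns, asparagine synthetase (-0.34). With the cohort as a replicate block 5 were lower (4.01%). None passed of 15 NRF2 targets (1 at an unadjusted p under 0.05, 0 by DESeq2) or of 20 glycolysis and HIF targets (6 and 0). Of the latter, 2 were higher and 2 lower both without cohort C3 (3.35% and 3.17% of all genes) and under the block (5.47% and 4.01%). Of 22 lysosome genes 2 rose and 1 fell, against 1.61% higher and 1.48% lower among all genes. Without the cohort C3 libraries 10 were higher (3.35% of all genes), among them the cathepsins Ctsb (0.24) and Ctsd (0.24) and the proton pump subunit Atp6v0d2 (0.77), and 4 were higher under the block (5.47%). Of 16 genes of matrix, adhesion and migration 1 rose, with 2 higher and 3 lower without cohort C3 (3.35% and 3.17% of all genes). Under the block 2 of the 16 were higher and 2 lower (5.47% and 4.01%).

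A run of neighbouring genes on chromosome 11 was lower in guide 1 cells. It was noticed after the values were seen, so its counts are a description. Among 301 windows of 5 Mb with at least 15 tested genes, the one from 50000001 to 55000000 held the largest share of called genes, 15 of 53 (28.3%, 14 of them lower), followed by one on chromosome 3 with 4 of 24 (16.7%, all higher). From Vdac1 to G3bp1 (chr11:52360851-55500888, 3.14 Mb on GRCm38.p6), 22 genes had a mean of at least 5 CPM. Of these, 20 were below 0, 15 were called lower and none higher, and the median log2 difference was -0.32, a level 0.802 times that of control cells. The 4 Mb before and after held 32 and 23 such genes with medians of -0.05 and -0.06, and 1 and 0 of them were called lower. The count of 15 was 10 at the lowest when 1 library was left out (the guide 1 library of cohort C2 or the control library of cohort C1) and 14 without the cohort C3 libraries.

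The genes of the run differ in function. Vdac1, a channel of the outer mitochondrial membrane, was lower by 0.33 on the log2 scale, Hspa4, an Hsp110 chaperone, by 0.37, Uqcrq, a subunit of respiratory complex III, by 0.38, Kif3a, a kinesin motor, by 0.42, Cdc42se2 by 0.31, Hint1, a nucleotide hydrolase, by 0.36, and G3bp1, a core protein of stress granules, by 0.33. All 7 kept their call whichever library was left out. Rad50, a DNA repair protein (-0.33), Rapgef6 (-0.44) and Anxa6, an annexin (-0.33), were called as well, but the call ended without the guide 1 library of cohort C1 or C2 or the control library of cohort C1 for Rad50, without any library but the guide 1 one of cohort C3 for Rapgef6, and without any but the guide 1 one of cohort C1 for Anxa6 (adjusted p at most 0.138).

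The run also holds Csf2, Tnip1 and Irf1. Irf1, an interferon-regulatory transcription factor, lies at chr11:53770014-53778374 and differed by -0.87 ± 0.14 (adjusted p = 0.00222), a call kept in all 6 fits without 1 library. Gm2a, the activator of ganglioside breakdown, lies inside the run and was not lower (0.03). At 0 h, 13 of the same 22 genes were called lower in guide 1 cells, with a median of -0.32. In guide 2 cells at 2 h the median was 0.06, none was called lower and Gm2a was called higher, and 16 of the 22 were lower in guide 1 than in guide 2 cells at an adjusted p under 0.05.

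**Figure D4:**
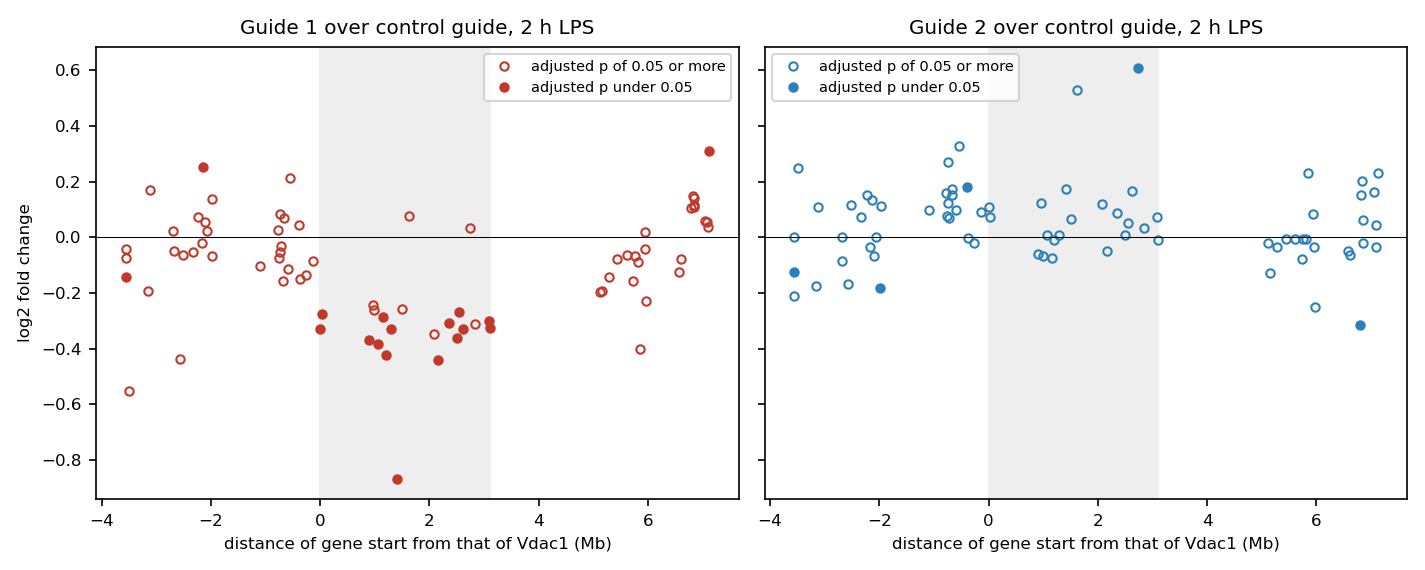
Log2 fold change over control guide at 2 h LPS of genes with a mean of at least 5 CPM by the distance of their start from that of Vdac1, for guide 1 (left) and guide 2 (right), with called genes filled and the stretch from Vdac1 to the start of G3bp1 shaded. In guide 1 cells 20 of 22 shaded genes lie below 0, while in guide 2 cells their median is 0.06.

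Few differences in the response to LPS itself were detected between guide 1 and control cells. With 3 libraries per group, undetected differences remain possible. With 2 h against 0 h, 6705 genes (51.3%) were called in guide 1 cells and 6743 (51.6%) in control cells. The difference between the responses was tested gene by gene, and 1 gene of 13078 (0.00765%) passed, with 7 by DESeq2. That gene was Sh2d5, an adaptor protein with an SH2 domain, at 17.5, 20.4 and 16.8 CPM in guide 1 cells and 9.83, 8.65 and 8.81 CPM in control cells at 2 h (1.00 ± 0.12, adjusted p = 0.000120). At 0 h it was at 2.14, 2.17 and 1.92 CPM in guide 1 cells and 2.70, 3.13 and 2.47 CPM in control cells. The call of a differing response ended with thinned libraries and in 7 of 12 fits without 1 library, among them each fit without a guide 1 library at 0 h. Among the 15 largest named rises, Sh2d5 is the one whose guide 1 libraries lay below the control libraries at 0 h. Over all genes, 293 were called between guide 1 and control cells at 0 h (2.24%), 1.05% higher and 1.19% lower.

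Guide 2 cells differed from the same control libraries in 779 genes at 2 h (5.96%), 3.54% higher and 2.42% lower. Because both comparisons share the 3 control libraries, the guides were compared directly. In guide 1 cells 86 genes were higher and 199 lower than in guide 2 cells, 2.18% of those tested (0.658% higher and 1.52% lower). Il19, Qpct and Sh2d5 were higher in guide 1 cells, and Axl, Ly86, Gpnmb, Gbp2 and Irf1 were lower. The count of 285 was 781 with the cohort as a replicate block, 161 without the guide 1 library of cohort C1, 180 without that of cohort C2, 181 without the guide 2 library of cohort C1 and 164 without that of cohort C2.

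Retrotransposons and DNA transposons together took 5.02%, 5.22% and 5.13% of gene and TE counts in guide 1 cells and 5.47%, 5.49% and 5.19% in control cells. The means were 5.12 ± 0.10% and 5.38 ± 0.17% (SD, n = 3 each), and the difference of -0.26 percentage points did not pass a two-sided exact permutation test (p = 0.2, with 0.1 the smallest possible). Of 937 subfamilies, 3 were higher and 19 lower (2.35% called, 0.32% higher and 2.03% lower), and the median log2 difference was -0.07. By class, 440 of 586 LTR subfamilies were below 0 (median -0.09), as were 116 of 149 LINE (-0.07), 108 of 166 DNA (-0.06) and 29 of 35 SINE subfamilies (-0.03). With totals and factors of the TE table in place of those of the genes the median was 0.00 and 13 subfamilies were called, 4 higher and 9 lower. The number called was 6 without the control library of cohort C1, 9 without the guide 1 library of cohort C1, 12 without the control library of cohort C2, 48 without that of cohort C3 and 61 without all C3 libraries.

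ERVB4_3, a family of ERVK endogenous retroviruses, fell most clearly. Its internal part was at 124, 119 and 111 CPM in guide 1 cells and 221, 205 and 172 CPM in control cells (-0.75 ± 0.09, adjusted p = 1.73e-06). Its long terminal repeat was at 23.4, 22.2 and 21.2 CPM in guide 1 cells and 40.1, 38.2 and 32.2 CPM in control cells (-0.73 ± 0.10, adjusted p = 2.5e-05). IAPEY4_I-int, an internal part of the IAP retroviruses, was at 82.1, 87.6 and 92.4 CPM in guide 1 cells and 117, 119 and 121 CPM in control cells (-0.45). Ricksha_0, a MULE-type DNA transposon, was at 20.9, 21.9 and 21 CPM in guide 1 cells and 30, 28.5 and 26.7 CPM in control cells (-0.42). These 4 were called whichever library was left out and with either scaling, and the first pair and Ricksha_0 were lower than control in guide 2 cells as well.

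The other named subfamilies were less secure. RLTR13A (-0.91, with overlapping groups) and RLTR41A2 (-0.64) had means near 1 CPM, and both calls ended without the guide 1 library of cohort C1 or C3 or the control library of cohort C1 or C2 (adjusted p at most 0.369 and 0.264), and under the TE table's own scaling. The rises were ERVB2_1-I_MM-int at 21.3, 17.4 and 19.4 CPM in guide 1 cells and 13.8, 13.7 and 14.3 CPM in control cells (0.47), LTR9 (0.39) and L1ME2 (0.25). Their adjusted p rose to at most 0.113, 0.211 and 0.133 without 1 library. The libraries that ended the call were those of guide 1 of cohort C1 and control of cohort C1 for ERVB2_1-I_MM-int, these and control of cohort C2 for LTR9, and guide 1 of cohort C2 or C3 or control of cohort C1 or C2 for L1ME2.

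VL30, the family known to rise in LPS-treated macrophages, stood somewhat lower in guide 1 cells at 2 h, a call that depended on the scaling and on single libraries. Its internal part MMVL30-int was at 4844, 4948 and 6015 CPM in guide 1 cells and 6385, 5916 and 7393 CPM in control cells, where the highest guide 1 library passed the lowest control library and the C3 library was the highest of each group. The log2 difference was -0.32 ± 0.09 (adjusted p = 0.0420). The long terminal repeat RLTR6_Mm was at 370, 380.8 and 424 CPM in guide 1 cells and 472, 452 and 555 CPM in control cells (-0.33 ± 0.08, adjusted p = 0.0246). Both calls ended without the guide 1 library of cohort C1 or C2 or the control library of cohort C1 or C3 (adjusted p at most 0.262 and 0.184) and under the TE table's own scaling (-0.25, adjusted p = 0.315, and -0.27, adjusted p = 0.266). RLTR6C_Mm (-0.34), RLTR6B_Mm (-0.28) and RLTR6-int (-0.15) did not pass.

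After LPS, MMVL30-int rose by 3.26 on the log2 scale in guide 1 cells and by 3.09 in control cells, and RLTR6_Mm by 3.68 and 3.50. No subfamily differed between the responses at an adjusted p under 0.05 (edgeR; 24 of 937 at an unadjusted p under 0.05). Among all subfamilies 57.8% were called with LPS in guide 1 cells and 56.2% in control cells, 52.8% and 50.9% of them higher. At 0 h MMVL30-int was lower in guide 1 than in control cells by 0.49 and RLTR6_Mm by 0.51.

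**Figure D5:**
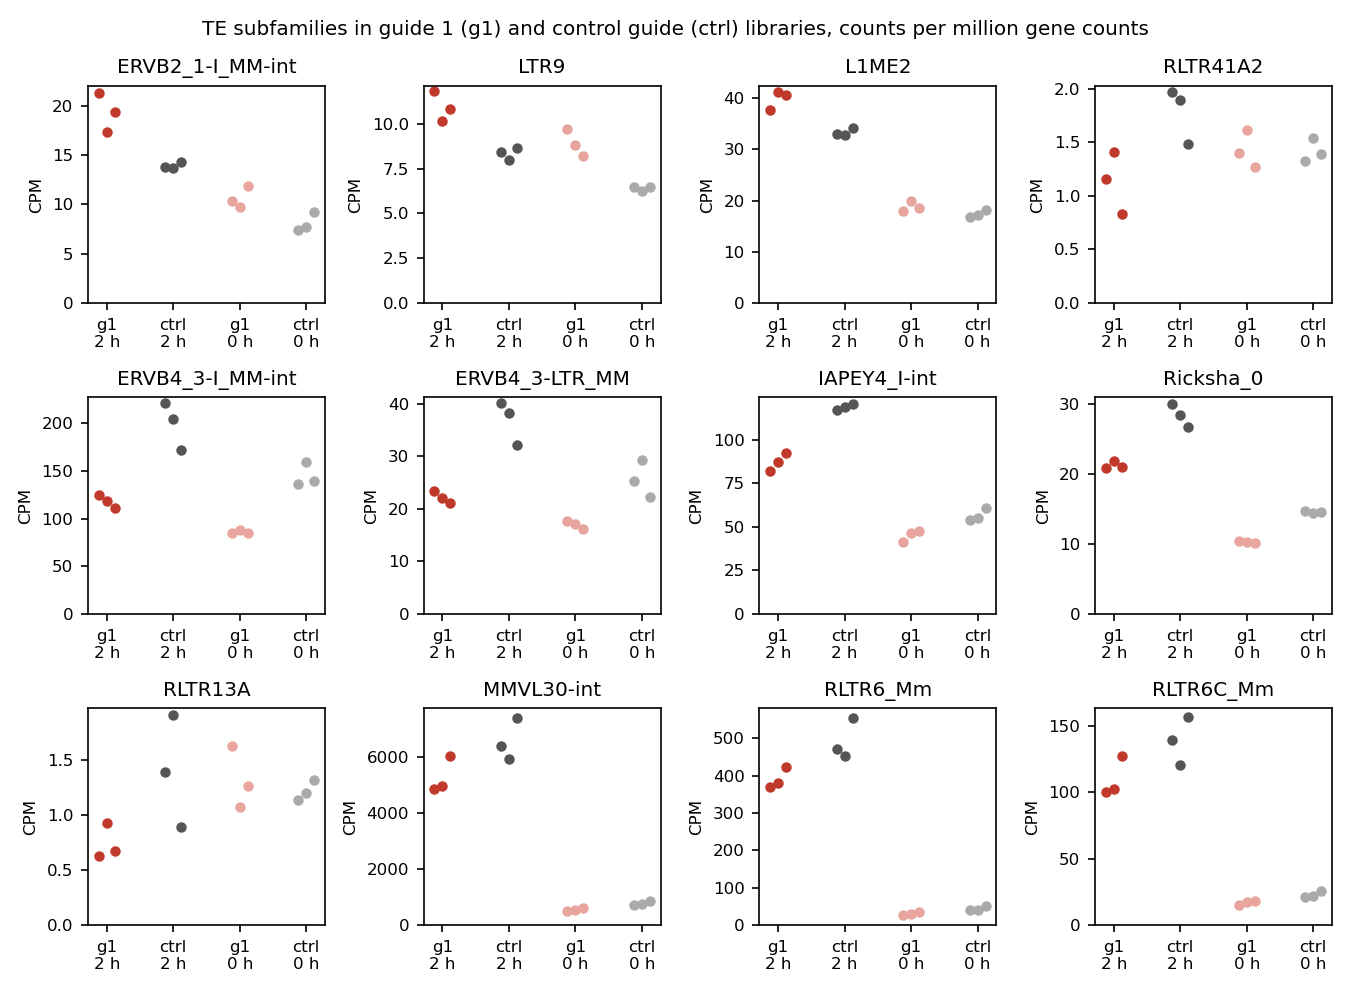
CPM (scaled to gene counts) of 12 TE subfamilies in each guide 1 and control guide library at 2 h LPS and at 0 h. ERVB4_3-I_MM-int lies at 111 to 124 CPM in guide 1 cells and 172 to 221 CPM in control cells at 2 h, and the VL30 names rise with LPS in both.

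The named single TE copies were picked as the largest differences among called copies, and they differed far more sharply than the named subfamilies. This does not hold for copies in general. Of 63366 copies tested, 61 were higher and 116 lower in guide 1 cells (0.279% called, 0.0963% higher and 0.183% lower), against 2.35% of subfamilies called. The median log2 difference of all tested copies was -0.02. The table numbers copies without giving coordinates, so their genes are not known here, and 111 of the 177 lay within 100 running numbers of another called copy. The same share was not computed for all tested copies. A pair of adjacent numbers, MLTR25A 3748853 and Zaphod 3748852, had 317 and 94 counts over the guide 1 libraries and 0 and 0 over the control libraries, at least 77.2-fold and 22.9-fold higher against a floor of 3 counts over the group. Another pair, L1M4 1749324 and URR1A 1749325, had no counts in guide 1 libraries and 483 and 168 in control libraries, at least 220-fold and 76.7-fold lower, and had mean levels of 0.0153 CPM and 0 CPM in guide 2 cells. The first pair passed the count filter only through guide 1 libraries and the second only through control libraries, so these contrasts are a description.

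Between running numbers 239899 and 239959, 9 of 11 tested copies were called and all 9 were higher. This run was drawn after the calls, by joining called copies within 100 numbers of each other, so its share of calls is a description. The 4 named copies in it, Arthur1B 239899, Lx5 239920, RMER17C 239900 and L1_Mur2 239921, had no counts in control libraries. They had 78, 72, 64 and 63 counts over the guide 1 libraries, at least 15.3-fold higher each. These 4 copies passed the count filter for testing only through the guide 1 libraries at 2 h. Their direction was thus set by the filter, and the contrast is a description. Of IAPEz-int, the internal part of intact IAP retroviruses, copy 1496237 was at 0.0838, 0.0562 and 0.0963 CPM in guide 1 cells and 4.35, 3.88 and 3.53 CPM in control cells (-5.61 ± 0.30). Copy 1054568 had no counts in guide 1 libraries and 142 in control libraries (at least 64.8-fold lower), as did the L1M3c copy 4709459 with 89 (at least 40.6-fold lower). Both passed the count filter only through control libraries. IAPEz-int copy 2786955 was called too, but its control libraries stood at 7.51, 0.0375 and 3.61 CPM, so the C2 library lay inside the guide 1 range of 0.0321 to 0.0844 CPM. All 12 named copies kept their call in each alternative run made on copies. These were a lower count filter, the TE table's scaling, only the compared libraries, the replicate block and the fits without 1 library. DESeq2, thinned libraries and the fit without cohort C3 were not run on copies. Counts cover counting error only, since reads without molecular identifiers are not independent molecules.

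The call of the predicted gene Gm15421 rested on 1 library. It was at 0.517, 0.591 and 0.369 CPM in guide 1 cells and 15.8, 0.506 and 0.437 CPM in control cells, and without the control library of cohort C1 its log2 difference was 0.07 in place of -3.47. Outside the named genes, how many calls rest on 1 library was not counted.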

How the data were processed

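The deposited gene and TE tables hold raw counts that the authors made from polyA, stranded TruSeq libraries, using STAR, HOMER, DESeq2 and mm10 per the submitters' processing notes. Versions, strand setting and use of multiply mapped reads are not given in the sources used here, so overlapping genes and near-identical copies are uncertain. All 18 RAW264.7 libraries entered 1 fit with 1 term per group (edgeR 4.0.16 in R 4.3.3, TMM factors, filterByExpr, quasi-likelihood test, Benjamini-Hochberg at 0.05). TE copies of 5 classes were summed into subfamilies, and single copies were tested with at least 10 counts in 3 libraries, both scaled by gene totals and factors. Standard errors are the log2 difference over the root of F. Alternatives used DESeq2 1.42.0, other scalings, filters and sample sets, the thinned libraries and the fit without cohort C3 being chosen after seeing the data. The test was also run on simulated counts. These were drawn without a cohort effect, so the check does not cover the cohort differences in these data.

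Members and gene lists were chosen with earlier results of these data known. Some named members of 1 list are not reported here. Named genes were up to 15 rises and 15 falls with the largest differences among called genes without overlap whose higher mean reached 5 CPM, passing over predicted genes, plus up to 4 called and 2 abundant uncalled members of each list. Positions and promoters came from RefSeq GRCm38.p6, and 48 tested genes had no match by symbol. The labels number libraries by cohort without saying what a cohort shares. Residuals of same-numbered guide 1 and control libraries at 2 h correlated at 0.02 (C1), 0.15 (C2) and 0.34 (C3). Differently numbered pairs ranged from -0.27 to 0.14, so only the C3 pair stood clearly apart. The fourth principal component set cohort C3 apart in every group. The main test was set up without a block, and the blocked count is given beside some of the counts it moved. The blocked fit called 1240 genes, among them all 403 of the main test. A gene that did not pass the main test may thus pass with the block.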

Additional observations from a re-analysis of the deposited data

Results flagged for a closer look

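Sh2d5 responded to LPS more in guide 1 cells than in control cells, and it was the only gene for which the difference of the responses itself passed the test. Its log2 response was 3.13 ± 0.14 in guide 1 cells and 1.72 ± 0.14 in control cells (SE), a difference of 1.42 ± 0.19 (adjusted p = 0.0130, edgeR). The call ended with thinned libraries and in 7 of 12 fits without 1 library, namely any guide 1 library at 0 h, the control libraries of cohorts C1 and C2 at 0 h and those of cohorts C2 and C3 at 2 h. In guide 2 cells Sh2d5 was at 4.29, 5.01 and 6.02 CPM at 2 h and at 1.21, 1.53 and 1.49 CPM at 0 h.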

How the results depend on the processing

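The count of genes called between guide 1 and control cells was 403 and became 703 with DESeq2, 241 with only the 6 compared libraries, 858 without the cohort C3 libraries, and 181 to 393 without 1 library (218 without the guide 1 library of cohort C1, 181 and 202 without the control libraries of C1 and C2). Of the 403, 400 were shared with DESeq2. Between guide 1 and guide 2 the count of 285 became 504 with DESeq2, 74 with only the compared libraries, 584 without cohort C3 and 161 to 413 without 1 library. The 1 gene with a differing LPS response became 7 with DESeq2, 2 with no filter, 5 without cohort C3, 0 with thinned libraries and 0 to 1 without 1 library. With the replicate number as a block, the counts were 1240, 781 and 4 genes and 267 TE copies. The 22 TE subfamilies became 13 with the TE table's scaling, 61 without cohort C3 and 6 to 48 without 1 library. TE copies numbered 177, and 91 to 134 without 1 library. The TE share kept its direction in every alternative run (-0.354 to -0.207 percentage points). Of 76 named genes called, 49 kept the call whichever of 6 libraries was left out. Log2 differences changed sign in 9 named genes. Il1b was -0.00175 with DESeq2, -0.00172 with RLE factors, -0.00319 with only the compared libraries, -0.0447 with the replicate block, and -0.216 to 0.129 without 1 library. Without 1 library Tnf ranged from -0.0359 to 0.194, Nfkbia from -0.0301 to 0.137, Oasl1 from -0.321 to 0.0244, Trim28 from -0.0601 to 0.0205, Lyz2 from -0.115 to 0.0208, Mki67 from -0.024 to 0.184, Gm2a from -0.00899 to 0.121 and the called gene Gm15421 from -4.03 to 0.0708. The causes of these changes were not tested. Depth differed between the groups, and p-values measure the spread between 3 libraries per group.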
